A study of Mus musculus with 8 samples.

Results

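Spi1, Runx1, Myb, Ikzf1 and Gfi1 are 5 transcription factor genes of definitive and myeloid haematopoiesis, taken by name from the 55422 features counted in each library. All 5 were counted in every library. They were selected on their UMI counts in these same libraries, across genotypes, stages and cell groups, so their levels and their differences between genotypes are a description, read against all genes tested in the same fit. Chimaeric mouse embryos had been made by injecting Tet-TKO ES cells of 1 line, which lack TET1, TET2 and TET3 and carry an H2B-tdTomato reporter driven by a CAG promoter, into C57BL/6J blastocysts that were transferred to CD1 females. Pooled embryos were sorted into tdTomato+ cells (Tet-TKO) and tdTomato- cells (WT host), and single cells were profiled with 10x Genomics 3′ v3 chemistry. At E8.5 the tdTomato+ cells gave 4 libraries and the tdTomato- cells 2, and at E7.5 each fraction gave 1. Both genotypes were sorted from chimaeras, but the labels do not say which libraries share embryos. The ES cells are of mixed C57BL/6J and 129Sv background, so strain and genotype cannot be told apart, and no library of injected WT ES cells was used here.

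Blood forms in the early mouse embryo in successive waves. The first gives primitive erythroid cells and some macrophages and megakaryocytes of the yolk sac, and later waves bud from haemogenic endothelium and give progenitors of the definitive erythroid and myeloid lineages. RUNX1 is a DNA-binding core factor needed for the budding of blood cells from haemogenic endothelium, SPI1 (PU.1) is an ETS factor that activates myeloid and macrophage genes, MYB maintains proliferating definitive progenitors, IKZF1 (Ikaros) is a zinc-finger factor of lymphoid and erythroid development, and GFI1 is a zinc-finger repressor that, with GFI1B, silences the endothelial programme in emerging blood cells. TET enzymes oxidise 5-methylcytosine, which in mammals is found mostly at CpG dinucleotides.

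The genes lie at chr2:91082390-91115756 (Spi1, plus strand), chr16:92601466-92826149 (Runx1, minus strand), chr10:21124935-21160984 (Myb, minus strand), chr11:11685003-11772926 (Ikzf1, plus strand) and chr5:107716657-107726036 (Gfi1, minus strand) of GRCm38. The 250 bases before a transcription start are shown for 4 starts of the 3 factors with the most counts, whose CpG content differed widely. Windows are from RefSeq (GRCm38.p6) and run 5′ to 3′ on the strand of the gene, with capitals for CpG. No window was available for Spi1. They come from chr16:92826075-92826324 (Runx1, distal start), chr16:92697330-92697579 (Runx1, proximal start), chr10:21160985-21161234 (Myb) and chr11:11685675-11685924 (Ikzf1, first of 2 starts).
Runx1 distal: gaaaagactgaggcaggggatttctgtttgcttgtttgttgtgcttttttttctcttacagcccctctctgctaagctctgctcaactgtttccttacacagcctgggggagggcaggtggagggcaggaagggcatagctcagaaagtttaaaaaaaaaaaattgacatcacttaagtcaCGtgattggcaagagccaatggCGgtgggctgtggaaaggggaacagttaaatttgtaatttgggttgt
Runx1 proximal: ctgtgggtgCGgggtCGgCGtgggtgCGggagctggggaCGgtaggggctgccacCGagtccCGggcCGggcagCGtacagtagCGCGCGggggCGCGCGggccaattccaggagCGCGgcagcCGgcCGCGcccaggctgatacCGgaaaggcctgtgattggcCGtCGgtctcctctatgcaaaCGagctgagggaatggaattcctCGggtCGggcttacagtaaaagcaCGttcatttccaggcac
Myb: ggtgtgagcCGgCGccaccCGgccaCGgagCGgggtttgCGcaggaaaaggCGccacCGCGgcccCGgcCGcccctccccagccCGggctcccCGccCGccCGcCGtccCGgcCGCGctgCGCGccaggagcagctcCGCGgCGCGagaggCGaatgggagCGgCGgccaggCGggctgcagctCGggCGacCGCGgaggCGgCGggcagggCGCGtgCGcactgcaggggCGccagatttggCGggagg
Ikzf1: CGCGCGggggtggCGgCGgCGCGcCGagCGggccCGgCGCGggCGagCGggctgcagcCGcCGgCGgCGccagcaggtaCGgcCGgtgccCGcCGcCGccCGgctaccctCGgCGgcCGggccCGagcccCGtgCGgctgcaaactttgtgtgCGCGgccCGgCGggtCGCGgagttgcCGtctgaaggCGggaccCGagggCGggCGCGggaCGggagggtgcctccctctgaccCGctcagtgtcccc
Runx1 had 2 CpG in its distal window and 27 in its proximal window, Myb had 40 and Ikzf1 had 44. The median over 32851 windows of the same length was 6, and 18.8%, 91.4%, 98.7% and 99.5% of windows held fewer CpG than these 4, in that order. The distal Runx1 window held 5 matches to AACNG, a short form of the MYB motif found on either strand in 74.2% of all windows. The proximal Runx1 window held 1 match to GAGGAA, a core of SPI1 sites found in 23.3% of windows, 46 bases before the start, and the windows of Myb and Ikzf1 held neither. None of the 4 held TGTGGT, the RUNX core, which was found in 14% of windows. The second Ikzf1 window held 1 CpG and the Gfi1 windows held 13 and 9. Since only the 3′ ends of transcripts were counted, the start that was used is unknown.

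The deposited values are raw counts of unique molecular identifiers (UMIs), and levels are given as CPM, the counts per 1000000 UMIs of all genes in the same cells. After filtering, 1012 to 9552 cells were kept per library, with 65082949 to 136773098 UMIs in the kept cells. Tet-TKO libraries 3 and 4 stood apart, with fewer cells (2304 and 1012) and more UMIs per cell (medians of 40386 and 68704) than the other E8.5 libraries (12176 to 18763). By a chi-square of their counts over genes, divided by its degrees of freedom, Tet-TKO libraries 1 and 2 (15.5) and 3 and 4 (17.8) were more alike than the other E8.5 pairs of 1 genotype (141 to 190), so the 4 form 2 sets. Counts of the Tet genes do not check the genotype, since 3′ counts can lie outside the deleted parts. tdTomato was counted in 60.8% to 87.2% of the cells of the Tet-TKO libraries and in 0.53% to 0.84% of those of the WT host libraries. No pair of libraries shared more than 0.434% of the cell barcodes of the smaller one. The labels do not say whether libraries came from separate pools of embryos, so p-values measure only the spread between libraries.

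At E8.5, 7 clusters held blood, myeloid or endothelial cells, and the 5 factors and all listed genes were left out of the genes used for clustering. Cluster 22 was blood progenitor-like (753 cells, led by Rab27b, Fgf3, Gucy1a1, Myb and Runx1), clusters 1 and 3 were erythroid-like (2037 and 1602 cells, cluster 3 led by Hbb-y), cluster 14 was haematoendothelial progenitor-like (1132 cells, led by Etv2) and cluster 17 endothelium-like (874 cells, led by Ctla2a and Lyve1). Cluster 39 (157 cells) was led by Fcer1g, Ctla2a, Spi1, Igf1 and Cd34. With both genotypes pooled, it held raised markers of both endothelium and myeloid cells, had 12.7% of its cells marked as doublets, and was left unnamed. Its counts of the myeloid marker Fcer1g came mostly from WT host cells (327 UMIs, against 8 in Tet-TKO libraries 1 and 2). All 10 listed myeloid genes tested there had negative log2 fold changes, Tet-TKO over WT host. Whether the cells of both genotypes in a cluster were of the same kind was not tested. Cluster 36 (222 cells, led by Emcn and Esam), in which 42.8% of cells were marked as doublets, was left unnamed too. Tet-TKO libraries 1 to 4 held 215, 209, 33 and 18 cells of cluster 22, and the WT host libraries 141 and 137. In cluster 1 they held 43, 154, 31 and 9 cells against 880 and 920, and in cluster 3 no more than 6 each against 381 and 1205, so cluster 3 could not be tested.

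Each factor had its own distribution over these clusters in WT host cells, where n = 2 libraries (see the plot of levels by library and cell group). Spi1 was highest in cluster 39 (110 and 250 CPM), followed by cluster 22 (24.2 and 18.7) and cluster 17 (11.8 and 14.6), with no overlap between these neighbours. It was between 0.216 and 6.60 CPM in clusters 36, 14, 1 and 3. In neural-like cells, which should lack it, Spi1 had 0 and 0.0571 CPM. Runx1 did not differ beyond the spread between cluster 39 (159 and 172 CPM) and cluster 22 (157 and 170). It was lower in cluster 1 (82.9 and 65.3), lower again in cluster 3 (44.8 and 28.8), and between 6.38 and 15.7 CPM in clusters 14, 17 and 36, against 2.35 and 1.88 in neural-like cells. Myb was highest in cluster 22 (61.7 and 68.6 CPM), then cluster 39 (38.7 and 44.4) and cluster 1 (11.3 and 9.29). Its values of 0 to 2.29 in the other clusters did not exceed those of neural-like cells (4.0 and 2.91). Ikzf1 was at like levels in clusters 1 (34.5 and 31.0 CPM), 3 (30.1 and 33.0), 22 (28.6 and 18.2) and 39 (20.4 and 33.3). It was at most 2.16 CPM in clusters 14, 17 and 36, against 0.782 and 0.856 in neural-like cells. Gfi1 was sparse, with 35 UMIs in all WT host cells of E8.5, and its highest level was 18.3 CPM (9 UMIs) in cluster 39 of library 1, against 0 in that cluster of library 2.

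**Figure D1:**
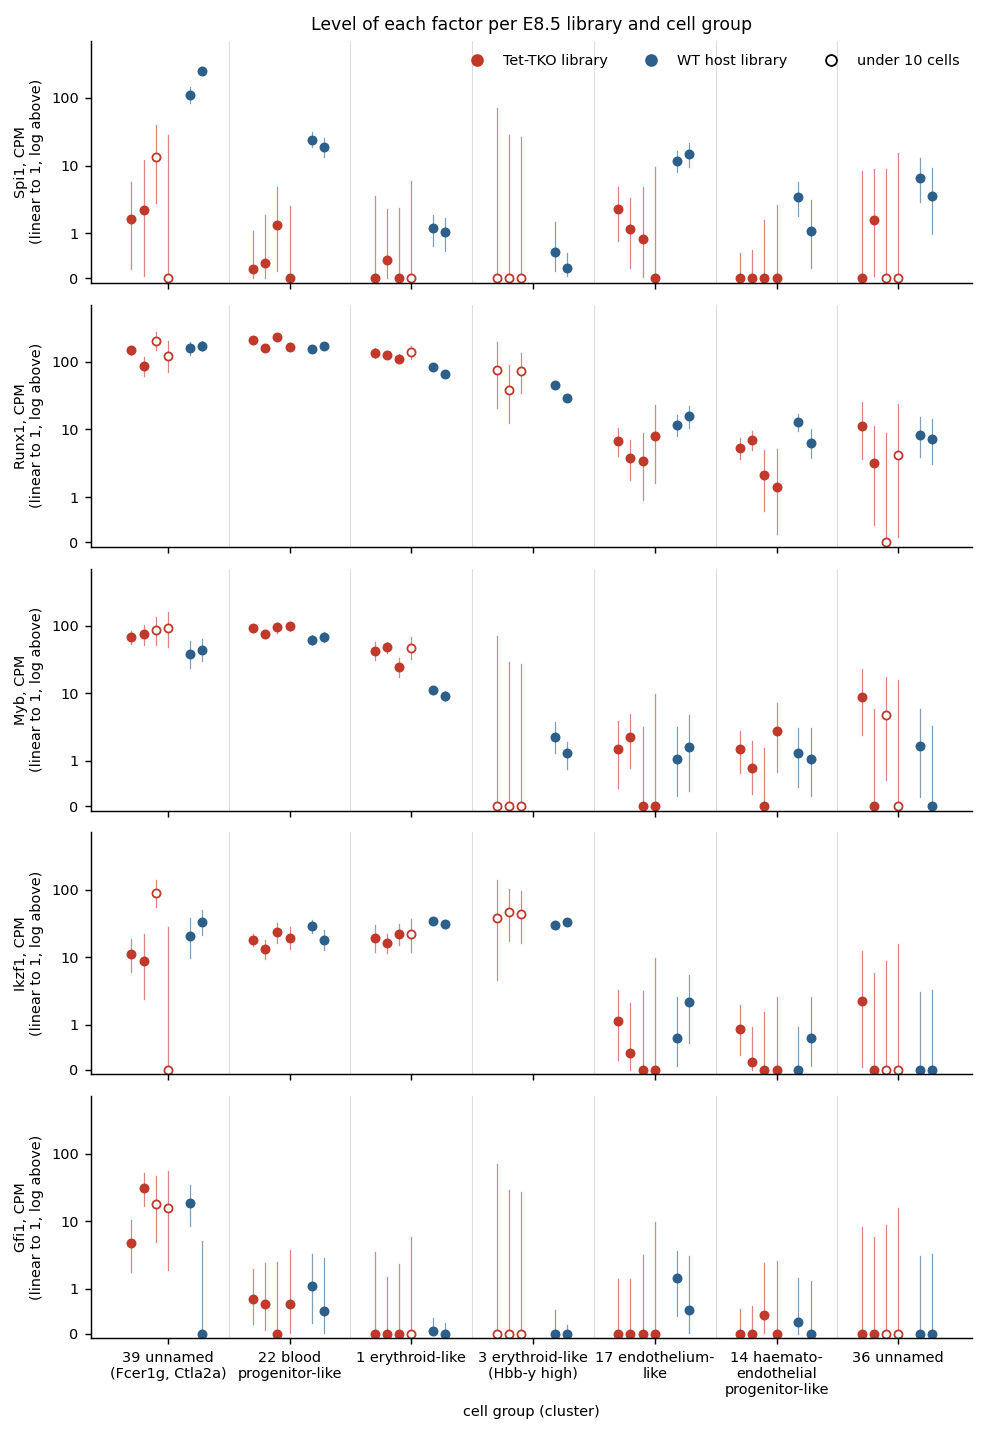
Level of each factor in CPM (vertical axis, linear up to 1 and logarithmic above) in each E8.5 library (points; Tet-TKO red, WT host blue) and cell group (horizontal axis), with 95% exact Poisson intervals that cover counting error only; open points rest on under 10 cells. In cluster 39, both WT host points of Spi1 (110 and 250) stand above the filled Tet-TKO points (1.60 and 2.19) and the open ones (13.5 in 4 cells and 0 in 1 cell), whereas Runx1 lay at 85.4 CPM or more in all libraries.

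Over all 42 E8.5 clusters, some of these genes were also counted outside blood. Runx1 reached 44.9 CPM in visceral endoderm-like cells of WT host embryos (665 UMIs in 763 cells) and 25.8 CPM in the 21 Tet-TKO cells there. Myb reached 10.3 CPM in 181 primordial germ cell-like Tet-TKO cells and 18.3 CPM in 17 such WT host cells (4 UMIs). Outside the 7 clusters Spi1 reached at most 0.602 CPM (2 UMIs), apart from erythroid-like cluster 28, in which 91.9% of cells were marked as doublets and which had 1.68 CPM in WT host cells (19 UMIs). The patterns of the 5 genes over the clusters were related to different degrees, with Pearson r of log2(CPM + 1) from 0.45 (Ikzf1 and Gfi1) to 0.86 (Runx1 and Ikzf1, and Spi1 and Gfi1). Clusters share libraries, so r is a description. The gene most like Spi1 over the clusters was Mpo, encoding myeloperoxidase (r = 0.97), then Cyth4 and Hcls1. The gene most like Ikzf1 was Gfi1b, an erythroid and megakaryocytic repressor (r = 0.98), then Treml2 and Trim58. For Myb it was Rgs18 (0.86), for Runx1 Stat5a (0.90) and for Gfi1, with 87 UMIs in all, Trbc2 (0.93). With Spearman's rank correlation the 3 most like genes differed, except for Gm48611, which was among those of Runx1 by both measures.

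**Figure D2:**
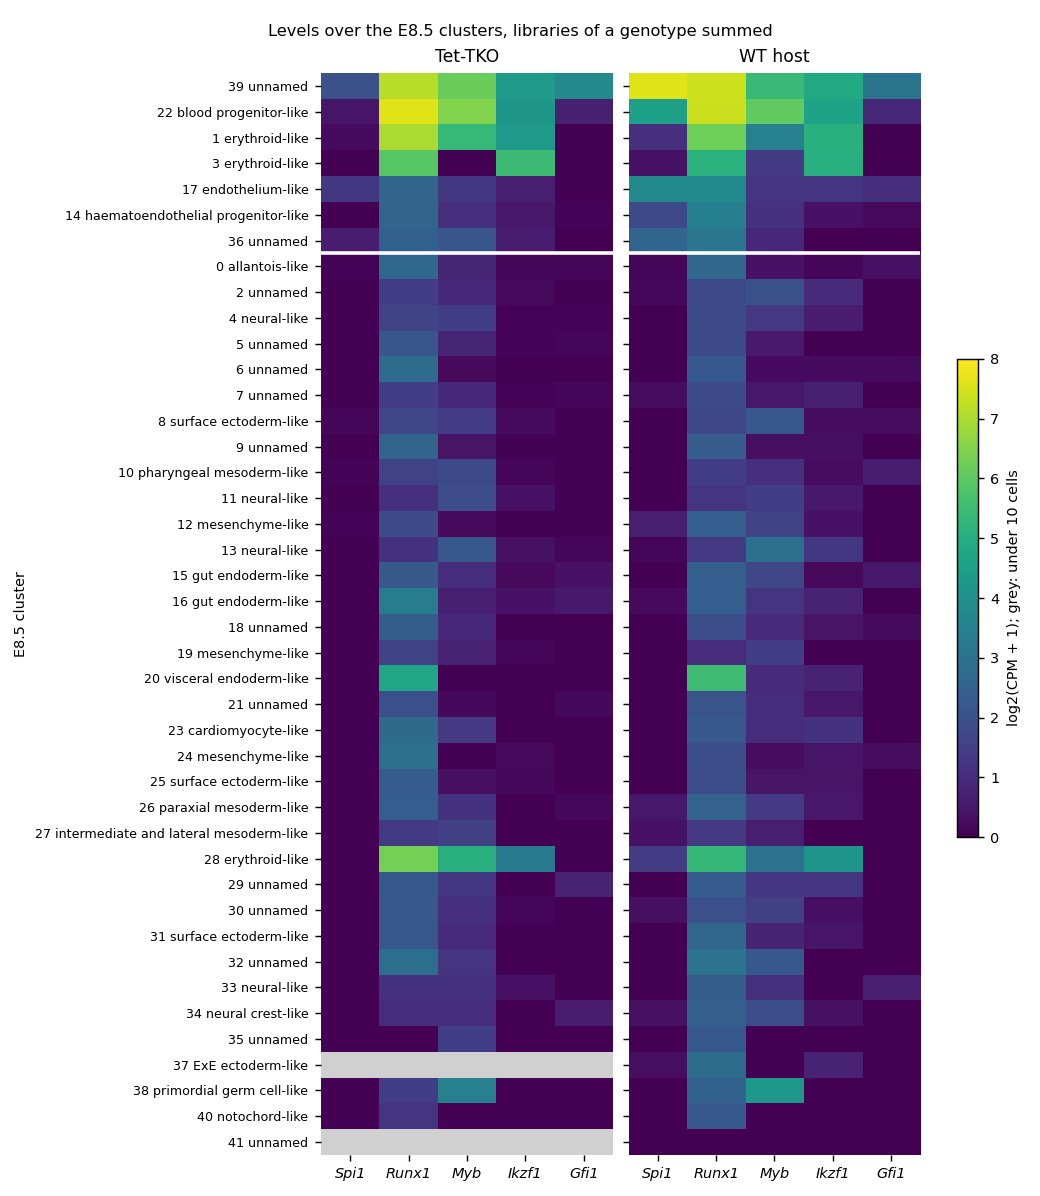
Levels of the 5 factors (columns) as log2(CPM + 1) in each E8.5 cluster (rows), for Tet-TKO (left) and WT host cells (right), libraries summed; grey marks under 10 cells. The blood and endothelial clusters stand above the white line, with cluster 28, in which 91.9% of cells were marked as doublets, listed below it; Runx1 is also bright in visceral endoderm-like cluster 20 (44.9 CPM in WT host cells).

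Spi1 was the factor with the largest difference between genotypes. In cluster 22 its level was 0.194, 0.336, 1.33 and 0 CPM for Tet-TKO libraries 1 to 4, and 24.2 and 18.7 CPM for WT host libraries 1 and 2. These are 4 UMIs in 475 Tet-TKO cells and 102 UMIs in 278 WT host cells, and the genotypes did not overlap. The share of all genes without overlap was not counted in single clusters, so lack of overlap in any of them only describes the values. The log2 fold change was -5.68 (SE 0.49, adjusted p = 0.000141 by the quasi-likelihood test of edgeR, Benjamini-Hochberg adjusted over all genes tested). A gene was called where the adjusted p was at most 0.01 and the change at least 2-fold; 1 of the 4 factors tested in cluster 22 was called, and 0.893 percent of the 8959 genes tested. With so few Tet-TKO UMIs, Spi1 passed the filter on low counts through the WT host libraries in every group where it was called. These calls therefore describe Spi1 and are no independent support. Within a cluster, too, fewer cells of a kind and less RNA per cell were not told apart.

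In cluster 39, which had enough cells in 2 libraries per genotype, Spi1 had 1.60 and 2.19 CPM in Tet-TKO libraries 1 and 2 against 110 and 250 CPM. The genotypes did not overlap, and the WT host libraries differed from each other. Over all libraries there were 6 UMIs in 85 Tet-TKO cells against 234 UMIs in 72 WT host cells, a level 66.2-fold lower (log2 -6.05, 95% interval of the ratio of counts -7.51 to -4.90, counting error only). Of the 6 UMIs, 3 came from 1 cell of Tet-TKO library 3 that also had at least 2 UMIs of adult leukocyte markers. The log2 fold change over the libraries tested was -6.52 (SE 0.58, adjusted p = 0.000178, edgeR with Benjamini-Hochberg adjustment). Spi1 was the 1 factor called of 5 tested, and 0.741 percent of all genes tested in cluster 39 were called. Tet-TKO libraries 1 and 2, the only ones tested here, belong to the same set, so the spread between the 2 sets is not in this test.

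In endothelium-like cluster 17, Spi1 had 2.25, 1.14, 0.861 and 0 CPM against 11.8 and 14.6 CPM, again without overlap. Its log2 fold change was -3.10 (SE 0.46, adjusted p = 0.00244, edgeR), and it was called together with 1.05 percent of all genes tested there. Here too Spi1 passed the filter on low counts through the WT host libraries, so the call is no independent support. This call was lost without Tet-TKO library 2 (adjusted p = 0.0163) or without WT host library 1 (0.0633) or 2 (0.0478). In cluster 14, Spi1 had 0 UMIs in 738 Tet-TKO cells, which allows up to 0.185 CPM, against 3.39 and 1.06 CPM (16 UMIs) in WT host cells. That is at least 13-fold lower with both WT host libraries pooled, taken against 3 counts over the Tet-TKO libraries together. The bound would be lower against WT host library 2 alone (1.06 CPM), and Spi1 was too low there to be tested. None of the 5 factors could be tested in cluster 36, where 0.878 percent of genes were called. In cluster 1 Spi1 was not tested either, with 1 UMI in 3 Tet-TKO libraries against 1.18 and 1.04 CPM. The effect in cluster 17 was smaller than that in cluster 39 by 3.75 on the log2 scale, which did not pass the threshold (adjusted p = 0.0359, edgeR with each library as a block, a test that 0.428 percent of genes passed).

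The share of cells with a Spi1 UMI followed the same pattern. After thinning every cell to 5000 UMIs, a Spi1 UMI remained in 0, 0, 0 and 0% of the cluster 22 cells of Tet-TKO libraries 1 to 4 and in 12.5% and 7.32% of those of WT host libraries. In cluster 39 the shares were 2% and 3.45% against 24.0% and 63.6%. Without thinning, 4 of 475 Tet-TKO cells of cluster 22 had a Spi1 UMI, and 63 of 278 WT host cells. A two-sided exact permutation test over libraries can reach no lower than p = 0.133 with 4 libraries against 2 and 0.333 with 2 against 2, so it cannot pass 0.05, and both differences were at these smallest values (0.5 and 0.714 after Benjamini-Hochberg adjustment over 45 shares). In E8.5 neural-like cells the thinned share was 0 in every library.

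Co-detection was read against the share of all cells with the other gene. In WT host cluster 39, 51 of 72 cells had a Spi1 UMI, of which 49 had Runx1 (62 of all 72 cells did), 46 had Cdh5 (VE-cadherin, of endothelium), 40 had Itga2b (CD41, of early blood cells), 37 had Fcer1g (the Fc receptor gamma chain of myeloid cells) and 10 had Csf1r, the macrophage colony-stimulating factor receptor. Among all 72 cells Cdh5, Itga2b, Fcer1g and Csf1r were found in 62, 52, 45 and 12, in this order. In Tet-TKO cluster 39, 4 of 85 cells had Spi1, and none had Csf1r. In WT host cluster 22, 52 of 63 Spi1-positive cells had Runx1, a share no higher than that of all its cells (233 of 278), and 23 had Fcer1g (63 of 278). The Tet-TKO cells that still had a Spi1 UMI numbered 17 of 2055 blood and endothelial cells at E8.5. Of these, 8 (47.1%) had a tdTomato UMI, against 67.3% of all Tet-TKO cells of these clusters. Of the 758 Runx1-positive cells, 58.6% had one.

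Markers of adult leukocytes were counted in cluster 22. The summed level of 12 such genes was 1.94, 2.69, 48.0 and 3.36 CPM in the Tet-TKO libraries and 86.3 and 38.8 CPM in the WT host libraries, with 1 to 7 of the 12 counted per library and Cd3e, S100a8, S100a9 and Retnlg at 0 in all of them. Tet-TKO library 3 lay above WT host library 2, so the genotypes overlapped. Single cells carried much of these sums, with 66 UMIs in 1 cell of Tet-TKO library 3, 220 in 1 of WT host library 1 and 76 in 1 of WT host library 2. The cells with at least 2 such UMIs numbered 0, 2, 2 and 2 in the Tet-TKO libraries and 3 and 1 in the WT host libraries, and held 4 of 65 and 2 of 37 WT host Spi1 UMIs. Without them the log2 fold change of Spi1 in cluster 22 was -5.57 (adjusted p = 0.000139, edgeR). In clusters 39 and 17 the list summed to between 0 and 9.01 CPM in every library. Genes listed for the decidua, a maternal tissue, also differed in cluster 17. Their sum was 743 to 942 CPM over Tet-TKO libraries but 1320 and 1383 CPM over WT host libraries, with Prl8a2 at 0 in all. Of these genes, Lum also led mesenchyme-like cluster 12 and Dcn was among those leading neural-like cluster 33, so the sum is not particular to maternal cells. The part of these genes in the results was not tested.

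Runx1 was not called in any single cluster. In cluster 22 it had 211, 160, 230 and 163 CPM in the Tet-TKO libraries against 157 and 170 CPM, so that the genotypes overlapped, with a log2 fold change of 0.24 (SE 0.17, adjusted p = 0.608, edgeR). In cluster 39 it had 148 and 85.4 CPM against 159 and 172 CPM, both below the WT host libraries, with a log2 fold change of -0.36 (SE 0.24, adjusted p = 0.582). After thinning, 40% and 24.1% of Tet-TKO cells of cluster 39 had a Runx1 UMI, against 64% and 59.1% of WT host cells, without overlap (two-sided exact permutation p = 0.333, the smallest possible with 2 libraries against 2). In erythroid-like cluster 1 the Runx1 values of Tet-TKO libraries 1 to 3, 134, 126 and 111 CPM, all lay above 82.9 and 65.3 CPM in WT host cells. That log2 difference of 0.66 (SE 0.15, adjusted p = 0.0428, edgeR) missed both thresholds.

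In clusters 17 and 14 the Runx1 difference had the opposite sign to that in cluster 1. In cluster 17 it had 6.74, 3.79, 3.45 and 7.86 CPM against 11.8 and 15.7 CPM, below both WT host libraries in 4 of 4 (log2 fold change -1.37, SE 0.36, adjusted p = 0.0767, edgeR). In cluster 14 the Tet-TKO values were 5.33, 6.94, 2.13 and 1.41 CPM and the WT host values 12.8 and 6.38, so 1 library overlapped (log2 fold change -1.04, SE 0.48, adjusted p = 0.436). The Runx1 value in cluster 14 was -0.42 without WT host library 1 and -1.45 without WT host library 2, and that in cluster 17 was -0.23 at the coarser clustering. None of these was called in its own cluster. The difference between clusters was tested directly, with each library as a block, and 5 of 56 such differences over 15 pairs of clusters passed an adjusted p of 0.01 (4 for Runx1 and 1 for Myb). The genotype effect on Runx1 was lower in cluster 17 than in cluster 1 by 2.10 on the log2 scale (SE 0.34, adjusted p = 6.11e-05), in cluster 14 than in cluster 1 by 1.52 (SE 0.30, adjusted p = 0.0020) and in cluster 39 than in cluster 1 by 1.16 (SE 0.23, adjusted p = 0.000938), and higher in cluster 22 than in cluster 17 by 1.67 (SE 0.31, adjusted p = 0.00293; all edgeR with Benjamini-Hochberg adjustment). The shares of all genes past an adjusted p of 0.01 in these 4 tests were 1.61, 1.48, 1.03 and 0.799 percent. Without the library block none of the 4 passed, with adjusted p of 0.0181, 0.268, 0.0978 and 0.0957.

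Myb had higher values in Tet-TKO than in WT host cells in clusters 1, 22 and 39, and passed the test in cluster 1. In cluster 1 its level was 42.4, 48.0 and 24.5 CPM for Tet-TKO libraries 1 to 3, and 11.3 and 9.29 CPM for both WT host libraries. The lowest Tet-TKO value was still above both WT host values. Its log2 fold change was 1.83 (SE 0.27, adjusted p = 0.00661, edgeR), which made it the 1 factor called of the 3 tested in cluster 1, where 1.62 percent of all genes were called and 1.01 percent called higher. The call was lost when any of Tet-TKO libraries 1 and 2 or WT host libraries 1 and 2 was left out, with adjusted p from 0.0279 to 0.0739 and log2 fold changes from 1.54 to 1.95. At Leiden resolution 1, a coarser clustering, the call was also lost (log2 fold change 1.69, adjusted p = 0.0159, edgeR). After thinning, 16.3%, 18.2% and 13.3% of Tet-TKO cells of cluster 1 had a Myb UMI, against 5.48% and 5.02% of WT host cells.

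In cluster 22 Myb had 93.5, 75.2, 94.1 and 97.5 CPM against 61.7 and 68.6 CPM, with every Tet-TKO library (4 of 4) above both. The log2 fold change was 0.48 (SE 0.15, adjusted p = 0.157, edgeR) and was not called. In cluster 39 it had 68.2 and 74.5 CPM against 38.7 and 44.4 CPM, again without overlap and not called (log2 fold change 0.81, SE 0.25, adjusted p = 0.148). Lack of overlap is common, at 52.9 percent of all genes in the blood and endothelial cells together, and its share in single clusters was not counted. The effect in cluster 22 was lower than that in cluster 1 by 1.41 on the log2 scale (SE 0.24, adjusted p = 0.00073, edgeR with each library as a block), a test that 1.05 percent of genes passed, and that Myb did not pass without the block (adjusted p = 0.190). Without thinning, cells with both Runx1 and Myb numbered 316 among the 475 Tet-TKO cells and 140 among the 278 WT host cells of cluster 22. These cells held 11105213 and 4672482 UMIs of all genes, so the counts also follow depth and the level of each gene.

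Ikzf1 was not called in any single cluster. In cluster 1 it had 19.3, 16.1 and 22 CPM against 34.5 and 31.0 CPM, lower in 3 of 3 libraries, with a log2 fold change of -0.89 (SE 0.17, adjusted p = 0.0208, edgeR). Without Tet-TKO library 3 the log2 fold change of Ikzf1 was -1.0, with an adjusted p of 0.00103 and was called. In cluster 39 it had 11.2 and 8.76 CPM against 20.4 and 33.3 CPM (log2 fold change -1.33, SE 0.46, adjusted p = 0.208). The values in cluster 22 overlapped, at 18.1, 13.1, 23.4 and 19.5 CPM against 28.6 and 18.2 CPM (log2 fold change -0.38, SE 0.26, adjusted p = 0.604).

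Gfi1 could be tested in 1 cluster. In cluster 39 it had 4.81 and 30.7 CPM (6 and 14 UMIs) in Tet-TKO libraries 1 and 2 against 18.3 and 0 CPM (9 and 0 UMIs) in the WT host libraries. The replicates of each genotype differed more than the genotypes did, and the log2 fold change was 0.83 (SE 1.11, adjusted p = 0.852, edgeR). Without thinning, a Gfi1 UMI was found in 15 of 85 Tet-TKO cells of cluster 39 (2054508 UMIs of all genes) and in 5 of 72 WT host cells (1211243 UMIs). In cluster 1 it was at 0 in every Tet-TKO library and had 1 UMI in all WT host cells, so no difference was detectable at this depth.

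**Figure D3:**
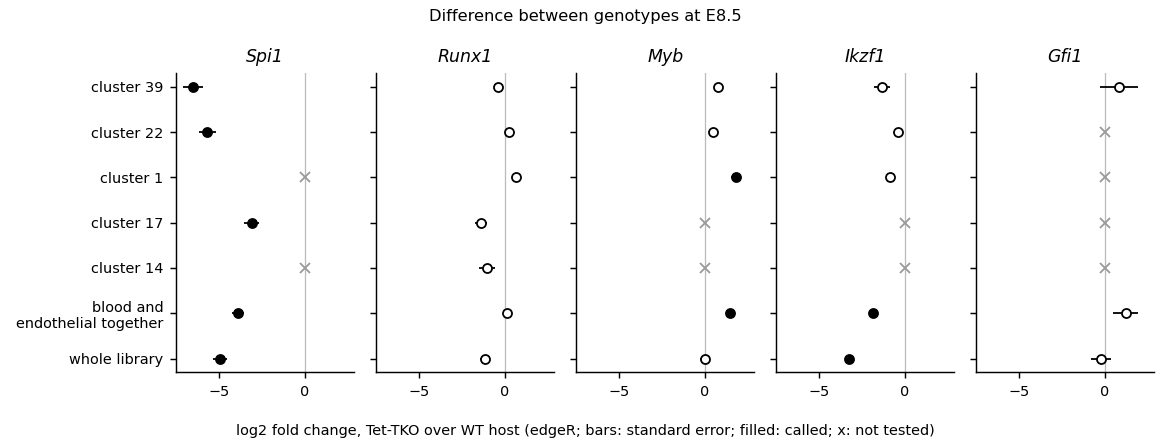
Log2 fold change of each factor, Tet-TKO over WT host at E8.5 (horizontal axis), by cell group (vertical axis), from edgeR; bars are standard errors, filled points were called and crosses were not tested. Spi1 lies between -6.52 and -3.10 in all groups tested, and Myb lies between 0.00 and 1.83.

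Summed over the blood and endothelial clusters together, 3 of the 5 factors were called, 2 lower and 1 higher in Tet-TKO cells, against 8.35 percent of the 13849 genes tested (3.04 percent lower and 5.31 percent higher). In these sums fewer cells of a type and less RNA per cell cannot be told apart, and the makeup differed, since erythroid-like clusters 1 and 3 held most of the 4722 WT host cells and few of the 2055 Tet-TKO cells, as their counts above show. Spi1 had 0.526, 0.462, 0.814 and 0 CPM against 5.74 and 6.40 CPM (log2 fold change -3.88, SE 0.37, adjusted p = 0.000505, edgeR). Ikzf1, which WT host erythroid-like cells also express, had 8.01, 5.74, 13 and 11.1 CPM against 25.1 and 27.2 (log2 fold change -1.82, SE 0.25, adjusted p = 0.00182). Myb had 36.7, 25.6, 27.3 and 43.1 CPM against 11.5 and 8.05 (log2 fold change 1.47, SE 0.25, adjusted p = 0.00423). For these 3 and for Gfi1, 4 of the 5 factors, the genotypes did not overlap, as for 52.9 percent of all genes tested. Without WT host library 2 the calls of Ikzf1 (adjusted p = 0.0314) and Myb (0.0729) were lost, and that of Myb also without WT host library 1 (0.0182) and with cells whose tdTomato UMIs matched the sorted fraction (0.0105). Runx1 (log2 fold change 0.12, adjusted p = 0.618) and Gfi1 (1.21, SE 0.72, adjusted p = 0.246) were not called. The Gfi1 value rested on single libraries, being 3.51 without WT host library 1 and 0.31 without WT host library 2.

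Over whole E8.5 libraries 2 of the 5 factors were called, both lower in Tet-TKO cells, against 2.65 percent of 21075 genes (2.06 percent lower). Spi1 had 10, 11, 6 and 1 UMIs in the Tet-TKO libraries and 211 and 288 in the WT host libraries (log2 fold change -4.95, SE 0.42, adjusted p = 0.00181, edgeR). It passed the filter on low counts through the WT host libraries, as in the other groups where it was called. Ikzf1 had 1.07, 0.813, 1.26 and 0.876 CPM against 7.56 and 10.2 CPM (log2 fold change -3.22, SE 0.22, adjusted p = 0.00117). For these and for Runx1, 3 of the 5 factors, the genotypes did not overlap, as for 41 percent of all genes tested. Runx1, at 15, 10.9, 9.19 and 7.5 CPM against 25.5 and 20.1 CPM, was lower in 4 of 4 libraries but not called (log2 fold change -1.16, SE 0.31, adjusted p = 0.0601), whereas DESeq2 called it (-1.15, adjusted p = 0.00713). Myb, at 5.77, 4.34, 3.43 and 4.23 CPM against 4.53 and 3.93 CPM, overlapped (log2 fold change 0.00), as did Gfi1, with 52 UMIs in all Tet-TKO and 35 in all WT host libraries (log2 fold change -0.20, adjusted p = 0.853). The Spi1 call was lost without either WT host library (adjusted p = 0.0107 and 0.0116). With the 2 sets of Tet-TKO libraries each summed to 1, both calls were lost (adjusted p = 0.0165 for Spi1 and 0.0150 for Ikzf1, edgeR).

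Genes related to these factors were described from 4 lists, as counts called beside those of all genes. Of 28 myeloid genes, many of them with known SPI1 sites, 8 of 10 tested were called lower in cluster 39, 6 of 13 in cluster 22, 4 of 8 in cluster 17, 2 of 5 in cluster 1, 1 of 6 in cluster 14 and 0 of 3 in cluster 36, and none was called higher in any of these. Among all genes tested, 0.59, 0.703, 0.806, 0.607, 0.496 and 0.508 percent were called lower in these clusters, in the same order. Between 3 and 13 of the 28 genes passed the filter on low counts in a cluster. Some of them, such as Fcgr3, Fcer1g and Coro1a in cluster 39 and Fcer1g and Rac2 in cluster 22, passed only through the WT host libraries. The counts called thus describe the genes tested and not the list. Csf1r, Mpo, Elane, Lyz2 and Tyrobp, of the same list, were called in no cluster, but not all of them were tested. In cluster 39 the 8 genes called of 10 tested were others, so most of these were not tested there. No lack of change can be read from this. Plek, called in clusters 39 and 22, was also among the megakaryocyte markers used for naming. In cluster 22, Fcer1g had 0, 0.336, 0.667 and 0 CPM against 21.9 and 75.1 CPM (log2 fold change -7.66, SE 0.72, adjusted p = 0.000224, edgeR). Rac2 had at most 1.56 CPM in Tet-TKO libraries of that cluster and at least 15.6 CPM in WT host libraries. Laptm5, a lysosomal protein of blood cells, had at most 4.71 CPM against at least 26.8 CPM. In cluster 39, Fcgr3, an Fc gamma receptor, had 0 UMIs in Tet-TKO libraries 1 and 2 against 18.3 and 88.9 CPM (73 UMIs). With the WT host libraries pooled that is at least 34.2-fold lower against 3 counts over both Tet-TKO libraries. The bound would be lower against WT host library 1 alone (9 UMIs). Coro1a, an actin regulator of leukocytes, had 3.21 and 2.19 CPM there against 63.1 and 218 CPM. Low counts of Fcgr3 (0 to 0.861 CPM against 6.77 and 15.1) and Laptm5 (0.758 to 3.74 against 12.5 and 16.2) were also seen in cluster 17.

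**Figure D4:**
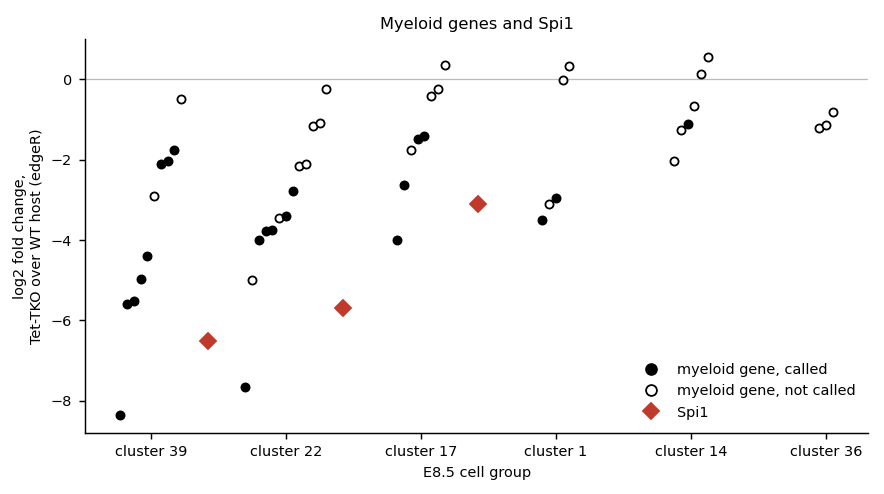
Log2 fold change, Tet-TKO over WT host at E8.5 (vertical axis, edgeR), of each tested gene of the myeloid list (circles; filled where called) and of Spi1 (diamonds, where tested) in 6 cell groups. In clusters 39 and 22, 8 and 6 circles are filled, all below 0; the lowest circle in cluster 39 is Fcgr3, whose fitted value is not a bound since it had 0 Tet-TKO UMIs.

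Of 30 haematopoietic transcription factors and cofactors, 16 to 22 were tested per cluster and none was called in clusters 14, 17, 22, 36 and 39. Of all genes, 0.859, 1.05, 0.893, 0.878 and 0.741 percent were called in these clusters, in that order. At such shares a lack of calls among so few genes does not show a lack of change. In cluster 1, 2 were called higher and 1 lower of 20, beside 1.01 and 0.607 percent of all genes. Hhex, a homeobox factor of endothelium and early progenitors, had 45.2, 51.6 and 62.9 CPM against 9.91 and 13.8, Fli1, an ETS factor of endothelium and megakaryocytes, 15.4 to 24.5 against 4.29 and 6.13, and Klf1, the master activator of erythroid genes, 85.7, 75.4 and 80.6 against 158 and 164. In the blood and endothelial cells together, whose makeup differed, 3 were called higher (Etv6, Hhex and Runx3) and 3 lower (Gata1, Gfi1b and Klf1) of 27, beside 5.31 and 3.04 percent of all genes. In whole libraries 5 were called lower of 29 (Gata1, Gfi1b, Klf1, Tal1 and Zfpm1), beside 2.06 percent of all genes.

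Of 22 genes of haemogenic endothelium and the emergence of blood cells, 1 of 7 tested was called higher in cluster 1, Rab27b (38.5 to 78.1 against 11.5 and 12.6 CPM), beside 1.01 percent of all genes. Called lower were Sox18 in clusters 14 (of 18 tested) and 36 (of 12), Procr and Foxc2 in cluster 17 (of 19) and Cd34 in cluster 39 (of 11), the last with 13.6 and 52.6 CPM against 177 and 332. Of all genes, 0.496, 0.508, 0.806 and 0.59 percent were called lower in clusters 14, 36, 17 and 39. None of 10 was called in cluster 22. Together, where the makeup differed, 5 of 20 were called higher (Cd44, Jag1, Rab27b, Sox17 and Sox7) and none lower, beside 5.31 and 3.04 percent of all genes. The median log2 fold change of the list was 0.67 together and 0.71 in cluster 1, beside 0.038 and 0.016 for all genes tested. The list median was negative in clusters 14 (-0.58), 17 (-0.51), 22 (-0.30), 36 (-0.83) and 39 (-0.62), where that of all genes lay between -0.00051 and 0.0133. The genes tested differed between clusters, with 7 in cluster 1, so these medians do not cover the same genes. In whole libraries 2 of 22 were called lower (Adgrg1 and Itga2b), beside 2.06 percent. None of the 8 GFI1 and GFI1B cofactors, such as Kdm1a and Rcor1, was called in any cluster, together or in whole libraries. In the clusters 7 of them were tested, beside 0.741 to 1.62 percent of all genes called, which is too few genes to show a lack of change.

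At E7.5, with 1 library per genotype and no test, Spi1 was already low in Tet-TKO cells. In haematoendothelial progenitor-like cluster 15 (154 Tet-TKO and 246 WT host cells) it had 1 UMI, or 0.242 CPM (95% exact Poisson interval 0.00614 to 1.35), against 9.56 CPM (6.62 to 13.4, 34 UMIs). The intervals, which cover counting error only, did not overlap. In the E7.5 blood and endothelial cells together there was 1 Spi1 UMI in the Tet-TKO library against 139, a level 56.6-fold lower (log2 -5.82, 95% interval -11.1 to -3.32). Of these 139 UMIs, 105 came from erythroid-like cluster 13, which held 431 WT host but 7 Tet-TKO cells, so the makeup of this sum differed too. In the same sum Runx1 had 559 against 2201 UMIs (log2 -0.68, -0.82 to -0.55), Myb 68 against 452 (log2 -1.44, -1.83 to -1.07) and Ikzf1 28 against 380 (log2 -2.47, -3.07 to -1.91). Gfi1 had 27 against 10 UMIs and was the 1 factor with a higher level in the Tet-TKO sum (log2 2.73, 1.64 to 3.94).

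The other factors were present in cluster 15 of both genotypes. Runx1 had 122 CPM (112 to 133) in Tet-TKO and 172 (158 to 186) in WT host cells, and Myb had 12.4 (9.21 to 16.3) and 16.6 (12.6 to 21.4). Ikzf1 had 6.30 CPM (4.12 to 9.24) against 18.8 (14.6 to 23.9). The intervals overlapped for Myb and not for Runx1 and Ikzf1. Gfi1 was higher in Tet-TKO cells by its count, with 23 UMIs (5.58 CPM, 3.54 to 8.37) against 10 (2.81 CPM, 1.35 to 5.17), and these intervals overlapped. Erythroid-like cluster 13 held 7 Tet-TKO cells and 431 WT host cells, the latter with 15.1 CPM of Spi1, 228 of Runx1, 56.4 of Myb and 44.9 of Ikzf1. It held 0 Gfi1 UMIs in WT host cells, which allows up to 0.430 CPM, and 4 in the 7 Tet-TKO cells (25.2 CPM, 6.86 to 64.4). Outside blood, Myb had 31.8 CPM in Tet-TKO and 25.5 in WT host epiblast-like cells, and Runx1 had 67.8 CPM in visceral endoderm-like WT host cells.

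**Figure D5:**
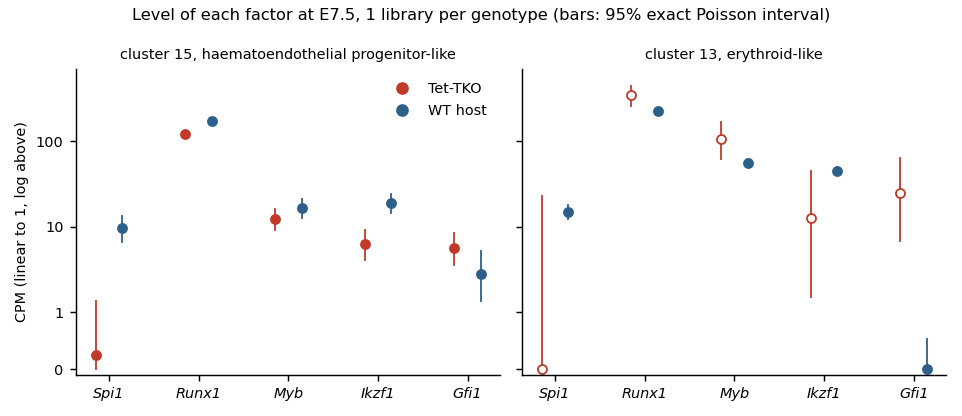
Level of each factor in CPM (vertical axis, linear up to 1 and logarithmic above) at E7.5 in 1 Tet-TKO (red) and 1 WT host library (blue), for cluster 15 (left) and cluster 13 (right); bars are 95% exact Poisson intervals and open points rest on under 10 cells. In cluster 15, Spi1 lies at 0.242 CPM in Tet-TKO and 9.56 in WT host cells, whereas Runx1 lies at 122 and 172.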

How the data were processed

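Cells of 8 libraries, sorted as Tet-TKO (4 at E8.5, 1 at E7.5) and WT host (2 at E8.5, 1 at E7.5), were analysed. The authors mapped reads to mm10 with Cell Ranger (5.0.0 in the methods, software version 3.1.0 in the file headers), with the GRCm38.92 annotation and the tdTomato sequence, and deposited the raw UMI counts, not normalized. The 5 genes and the 4 lists were chosen with earlier results of these data known.

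The study's own limits on cells were used (1500 UMIs or more, mitochondrial UMIs up to 30%, ribosomal UMIs up to 35%). Each stage was clustered with scanpy 1.11.5 (2500 variable genes, 50 principal components, correction by 20 mutual nearest neighbours, 15 graph neighbours, leidenalg 0.10.2 at resolution 2). Clusters were named from marker lists, and the 1 blood cluster in which over 50% of cells were marked as doublets was left out. Marked doublets in the other clusters were kept, except in the alternative with doublets removed. UMIs were summed per cluster and library (at least 10 cells, 2 libraries per genotype) and tested with filterByExpr, TMM and the quasi-likelihood test of edgeR 4.0.16 in R 4.3.3, with Benjamini-Hochberg adjustment. DESeq2 1.42.0 was an alternative. The study tests cells, whereas here the replicate is the library. Differences between clusters were tested with library as a block. Intervals are 95% and cover counting error only. The test was also run on simulated counts of independent libraries with the same dispersion for every gene. The likeness within the 2 sets of Tet-TKO libraries was not part of that simulation. Named were all 5 factors and up to 3 genes most like each. Levels of list genes are printed only for called genes outside the WT host range in every Tet-TKO library, up to 3 per list and cluster. Other list genes are named without levels.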

Additional observations from a re-analysis of the deposited data

Results flagged for a closer look

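For 5 pairs of clusters the difference between Tet-TKO and WT host cells was itself different, by the test of that difference with each library as a block. For Runx1 the log2 genotype effect was -2.10 in cluster 17 minus cluster 1, -1.52 in cluster 14 minus cluster 1, -1.16 in cluster 39 minus cluster 1, and 1.67 in cluster 22 minus cluster 17. For Myb it was -1.41 in cluster 22 minus cluster 1. Cluster 1 had 3 Tet-TKO libraries with at least 10 cells, and cluster 39 had 2. For a single library far from the others, 18 groups of 4 Tet-TKO libraries (1 factor in 1 cell group each) were examined, and none held one. Groups with fewer libraries, such as clusters 1 and 39 and all WT host groups, could not be examined.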

How the results depend on the processing

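Spi1 was called in cluster 22 in 17 of 17 alternatives that tested it (log2 fold change -6.38 to -5.25) and in cluster 39 in 12 of 12 (-7.56 to -5.78). With no correction between libraries, the cluster matched to cluster 22 did not have Spi1 among the genes tested, and 0 of the factors and 0 listed genes were called. There Myb was at -0.15 and Ikzf1 at 0.11 on the log2 scale. At Leiden resolution 1, Myb was no longer called in cluster 1, which left 0 factors called there. Clusters 36 and 39 had no match at that resolution. With no correction, clusters 1, 14, 17, 36 and 39 had none either (0.143 to 0.496 of cells shared, under the limit of 0.5), and cluster 22 barely did (0.506). Neither reclustering was run for the clusters together.

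Numbers of listed genes called, 19 together, 6, 2, 6, 6, 1 and 9 in clusters 1, 14, 17, 22, 36 and 39 and 15 in whole libraries, moved with the settings. With no filter on low counts they were 29 together and 8, 10, 17, 3 and 22 in clusters 14, 17, 22, 36 and 39, and 1 factor (Spi1) was called in cluster 14. With DESeq2 they were 4, 10 and 0 in clusters 14, 22 and 36 and 25 in whole libraries. With Tet-TKO libraries summed in pairs they were 12 together, 1 and 0 in clusters 14 and 36 and 0 in whole libraries, where 0 factors were called. In cluster 36 they were 0 with doublets removed, 2 with at least 3000 UMIs per cell, 2 with matching tdTomato UMIs and 0 without cells of adult leukocyte markers (an alternative chosen after seeing the data).

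The replicate block over libraries 1 and 2 gave 30 listed genes together, 10, 8, 17 and 5 in clusters 1, 14, 22 and 36 and 24 in whole libraries, where Gfi1 was at 0.13 on the log2 scale. Deviations of libraries with the same number correlated at 0.0035 to 0.366. The labels do not say whether libraries with the same number came from the same embryos, and 2 pairs do not settle it. The block changed no call of the 5 factors. Without the library block the 5 differences between clusters were -1.51, -2.08, -1.03 and 1.64 for Runx1 (clusters 14, 17 and 39 minus cluster 1, and 22 minus 17) and -1.37 for Myb, and none passed.

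Leaving out 1 library gave 1 to 3 factors called together, 0 to 2 in cluster 1, 0 to 1 in cluster 17 and 1 to 2 in whole libraries. Listed genes called ranged from 4 to 19 together, 0 to 7, 0 to 2, 0 to 8, 3 to 9, 1 to 5 and 2 to 22 in clusters 1, 14, 17, 22, 36 and 39, and 3 to 9 in whole libraries. Signs turned for some log2 fold changes, which ranged from -0.030 to 0.30 for Runx1 together (lowest without WT host 2), from -0.67 to 0.064 for Ikzf1 in cluster 22 (highest without WT host 1), from -0.64 (without Tet-TKO 2) to 6.58 for Gfi1 in cluster 39 (-0.29 without WT host 2), from -0.85 to 1.03 for Gfi1 in whole libraries (highest without WT host 1) and from -0.19 (without Tet-TKO 1) to 0.14 for Myb in whole libraries. Myb in whole libraries was also -0.0025 with no filter, -0.0019 at 3000 UMIs, -0.060 with matching tdTomato and -0.012 without the leukocyte-marked cells.

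Shares of cells, in percentage points, ranged over the libraries left out from -0.121 to 1.63 for Myb in cluster 14 (-1.63 at 10000 UMIs), from -0.139 to 0.51 for Myb in cluster 17 (-0.51 at 10000 UMIs), from -0.405 to 0.176 and from -0.858 to 0.113 for Ikzf1 in clusters 14 and 17, from -5.56 to 3.61 for Ikzf1 in cluster 22 (11.4 with no thinning) and from -4.0 to 12.7 for Gfi1 in cluster 39. Gfi1 in cluster 22 was 1.02 with no thinning. The cause of these changes was not tested. Depth limits Gfi1 most, with 87 UMIs in all E8.5 cells.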
